A study of Mus musculus with 24 samples.

Results

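The 8 genes described here make or break down glycogen, and they were chosen by their platform gene symbol from a table of 45101 probe sets, in which 18193 genes have a probe set with 1 symbol. They are Gys2, Ppp1r3b, Ppp1r3c, Pygl, Gbe1 and Ugp2, and, set apart as muscle forms, Gys1 and Pygm. For each gene, the probe set with the highest mean log2 value over the 24 arrays was taken. All 8 lay above the array median on 24 of 24 arrays and were among the 12352 genes tested.

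The arrays measured total RNA of mammary glands from nulliparous Balb/c mice that had been ovariectomized at 6 weeks of age and rested for 2 weeks. The treated groups, called P4 here, received 1 mg of progesterone in 100 µl of sesame oil under the skin each day and their glands were taken 4, 16, 28 or 76 h later, counted from the first dose. The control groups, called oil, received 100 µl of sesame oil and were sampled at the same times. All groups therefore lacked ovaries, and by 28 and 76 h more than 1 daily injection would have been given, so that time and number of injections cannot be told apart. Each of the 8 groups holds 3 arrays of the Affymetrix Mouse Genome 430 2.0 type, and each array carries the pooled RNA of 5 mice.

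Glycogen is a branched polymer of glucose kept as a short-term store. Ugp2 makes its activated precursor, UDP-glucose, glycogen synthase (Gys2 in liver and fat, Gys1 in muscle and most other tissues) lengthens the chains, and the branching enzyme Gbe1 adds the branch points. Phosphorylase (Pygl in liver and other tissues, Pygm in muscle) releases glucose units. Ppp1r3b and Ppp1r3c are targeting subunits that bring protein phosphatase 1 to glycogen, where it activates the synthase and inactivates phosphorylase. Adipocytes, which make up much of the mouse mammary fat pad, hold a small glycogen store.

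The progesterone receptor transcript Pgr had intensities of 87.8, 99.9 and 69.0 in P4 glands at 4 h, against 490, 493 and 411 in oil glands, a log2 difference of -2.45 ± 0.21 (SE, n = 3 arrays each; limma, adjusted p = 2.02e-07). The Pgr difference was -1.44 at 16 h (limma, adjusted p = 0.00119) and -1.33 at 28 h (adjusted p = 0.000453). At 76 h Pgr averaged 279 ± 29.7 in P4 glands and 279 ± 43.2 in oil glands (SD). Oil glands had averaged 464, 465 and 426 at 4, 16 and 28 h, so that the oil level itself was lower at 76 h. Against the oil arrays of those 3 times, P4 glands of 76 h were lower by -0.69 (limma, adjusted p = 0.00290). Array medians lay between 62.8 and 70.2, and arrays of a group correlated across genes with r from 0.966 to 0.993. None of the defining markers of fat (Adipoq, Lep), brown fat (Ucp1), muscle (Acta1, Ckm), epithelium (Krt8, Krt18) or liver (Alb) was at the floor on any array. In such bulk samples of a whole gland, fewer cells of a type and less RNA per cell cannot be told apart.

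At 76 h, 7 of the 8 glycogen genes were lower in P4 glands than in oil glands, and none was higher. Calls are at an adjusted p under 0.05 in a limma fit of all 24 arrays, adjusted over all genes tested. Of all genes, 17.8% were called at that time, and 6.70% were called lower. For the 7 genes every P4 array lay below every oil array, as was so for 18.9% of all genes. The median log2 difference of the 8 genes was -0.68, with a range from -1.62 to -0.13, where the median of all genes was 0.02. Pygm, the muscle phosphorylase, was the gene not called.

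**Figure D1:**
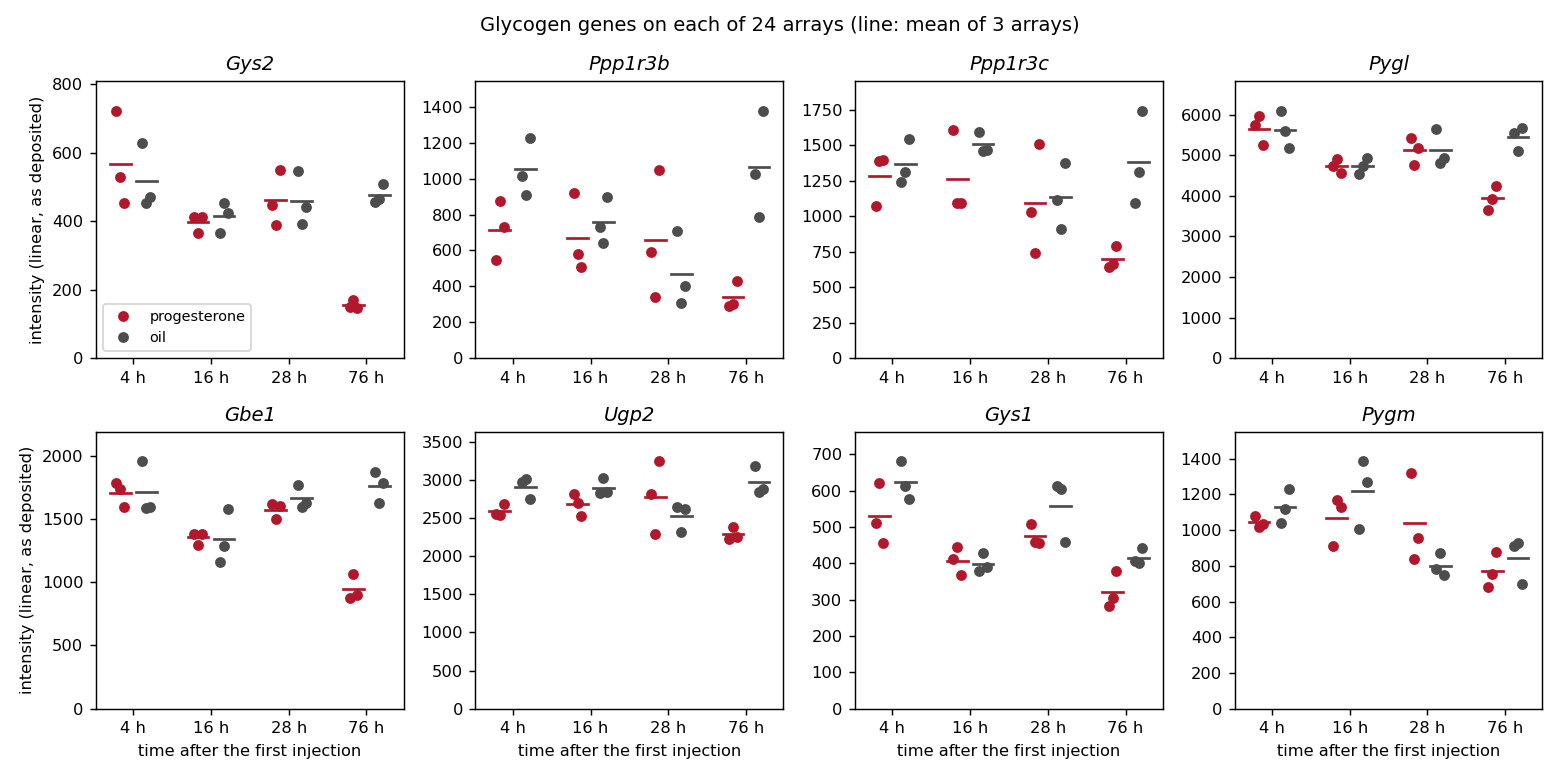
Intensity (linear, as deposited) of each glycogen gene on each of the 24 arrays, with P4 (progesterone) points to the left of oil points at 4, 16, 28 and 76 h after the first injection and lines at the mean of 3 arrays. At 76 h the P4 points of Gys2 lie between 146 and 168, below all oil points of that time, while those of Pygm overlap with oil.

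Gys2, the synthase isoform of liver and fat, had intensities of 150, 168 and 146 in P4 glands at 76 h, against 457, 465 and 507 in oil glands. The P4 arrays were also below every other array of the study, whose lowest value was 367. The log2 difference was -1.62 ± 0.16 (adjusted p = 1.28e-07), so that oil glands were 3.08-fold higher. Gys2 ranked 13 among the falls of all 12352 genes at that time. In the oil groups it averaged 517 ± 96.1, 414 ± 43.6, 459 ± 79.4 and 476 ± 26.8 at 4, 16, 28 and 76 h (SD, n = 3 each), an order in which no neighbours differed beyond their spread.

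Ppp1r3b, the phosphatase subunit best known from liver, had 292, 304 and 430 in P4 glands at 76 h, against 1028, 785 and 1378 in oil glands. The groups did not overlap, although the oil arrays spread widely. The log2 difference was -1.62 ± 0.32 (adjusted p = 0.000844), and the gene ranked 12 among the falls.

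Ppp1r3c, the subunit also called protein targeting to glycogen, had 642, 666 and 788 in P4 glands at 76 h, against 1093, 1315 and 1745 in oil glands. All P4 arrays lay below all oil arrays, with a log2 difference of -0.97 ± 0.21 (adjusted p = 0.00171). A second probe set of Ppp1r3c had 173, 195 and 256 in P4 glands and 336, 388 and 592 in oil glands, a difference of -1.05 (adjusted p = 0.0101).

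Gbe1, the branching enzyme, had 872, 1063 and 899 in P4 glands at 76 h, against 1867, 1628 and 1782 in oil glands. The 2 groups were far apart compared with their spread, with a log2 difference of -0.90 ± 0.10 (adjusted p = 1.01e-06). Oil glands were 1.87-fold higher.

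Ugp2, the enzyme that makes UDP-glucose, had 2229, 2377 and 2251 in P4 glands at 76 h, against 3188, 2845 and 2875 in oil glands. Its groups did not overlap, and the log2 difference was -0.38 ± 0.09 (adjusted p = 0.00413). Ugp2 is read by 5 probe sets, and the other 4 gave -0.41 to -0.66, each of them called (highest adjusted p 0.00600).

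Pygl, the phosphorylase of liver and other tissues, had 3664, 3923 and 4244 in P4 glands at 76 h, against 5558, 5105 and 5675 in oil glands. Here too no P4 array reached the lowest oil array. The log2 difference was -0.47 ± 0.08 (adjusted p = 8.42e-05), a 1.38-fold higher level in oil glands.

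Of the muscle forms, Gys1, the synthase of muscle and most tissues, had 283, 305 and 379 in P4 glands at 76 h, against 407, 400 and 442 in oil glands. The highest P4 array lay just under the lowest oil array. The log2 difference was -0.38 ± 0.13 (adjusted p = 0.0439), close to the threshold. A second probe set of Gys1 had 113, 117 and 179 in P4 glands and 157, 137 and 202 in oil glands, which overlap, with -0.29 and an adjusted p of 0.477. The call of Gys1 was also lost in 8 of 24 fits without 1 array. These left out any oil array of 76 h, the first or second P4 array of 76 h, the second oil or first P4 array of 4 h, or the first oil array of 16 h, and the values lay between -0.29 (adjusted p = 0.221) and -0.41 (adjusted p = 0.0766).

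Pygm, the muscle phosphorylase, had 683, 755 and 879 in P4 glands at 76 h, against 912, 927 and 700 in oil glands. The groups overlapped, and the log2 difference was -0.13 ± 0.15 (95% interval -0.44 to 0.19, adjusted p = 0.622). The oil array with 700 is also the one with the lowest sum of 15 skeletal muscle markers in that group. That sum lay between 16243 and 29405 in P4 glands and between 12203 and 44628 in oil glands at 76 h. None of the 15 muscle markers was called at 76 h, and their median log2 difference was -0.42.

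**Figure D2:**
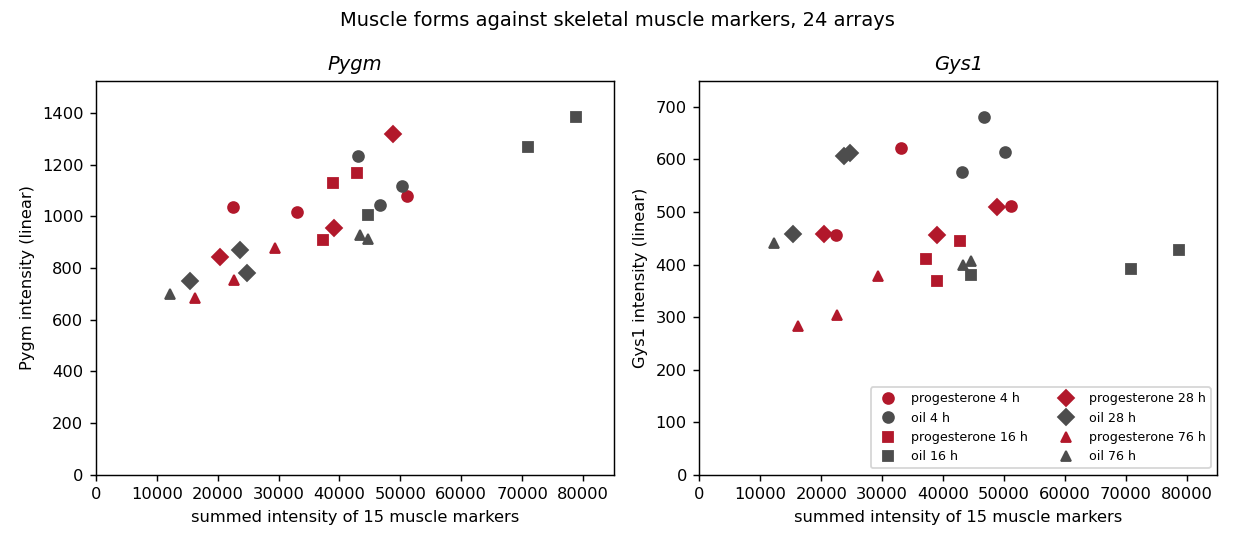
Intensity of Pygm (left) and Gys1 (right) against the summed intensity of 15 skeletal muscle markers on the 24 arrays, with P4 arrays in red, oil arrays in grey and 1 marker shape per time. Pygm is high where the muscle sum is high, while the 3 P4 arrays of 76 h, at 283 to 379, are among the lowest in Gys1 and have muscle sums between 16243 and 29405.

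At the earlier times none of the 8 glycogen genes, read from the chosen probe sets, was called between P4 and oil glands. The share of all genes called was 0.186% at 4 h, 0.308% at 16 h and 2.53% at 28 h, so that few calls of any kind were made there. At an unadjusted p under 0.05 limma gave 0 of the 8 genes at 4 h, 0 at 16 h and 1 at 28 h, which was Pygm. The share of all genes at that unadjusted threshold was not counted. The median log2 difference of the 8 genes was -0.10, -0.08 and 0.0026 at 4, 16 and 28 h. P4 and oil arrays did not overlap in 2 of the 8 genes at 4 h (Ppp1r3b and Ugp2), 1 at 16 h (Ugp2) and 0 at 28 h. The share of all genes without overlap at these times is not given here. Ugp2 had 2538 to 2680 in P4 glands at 4 h, against 2755 to 3011 in oil glands. At 16 h it had 2532 to 2818 against 2822 to 3024. The second probe set of Gys1 had 96.7, 114 and 138 in P4 glands at 4 h, against 205, 213 and 220 in oil glands, without overlap. The chosen probe set of Gys1 had 512, 621 and 457 against 681, 614 and 576, which overlap.

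**Figure D3:**
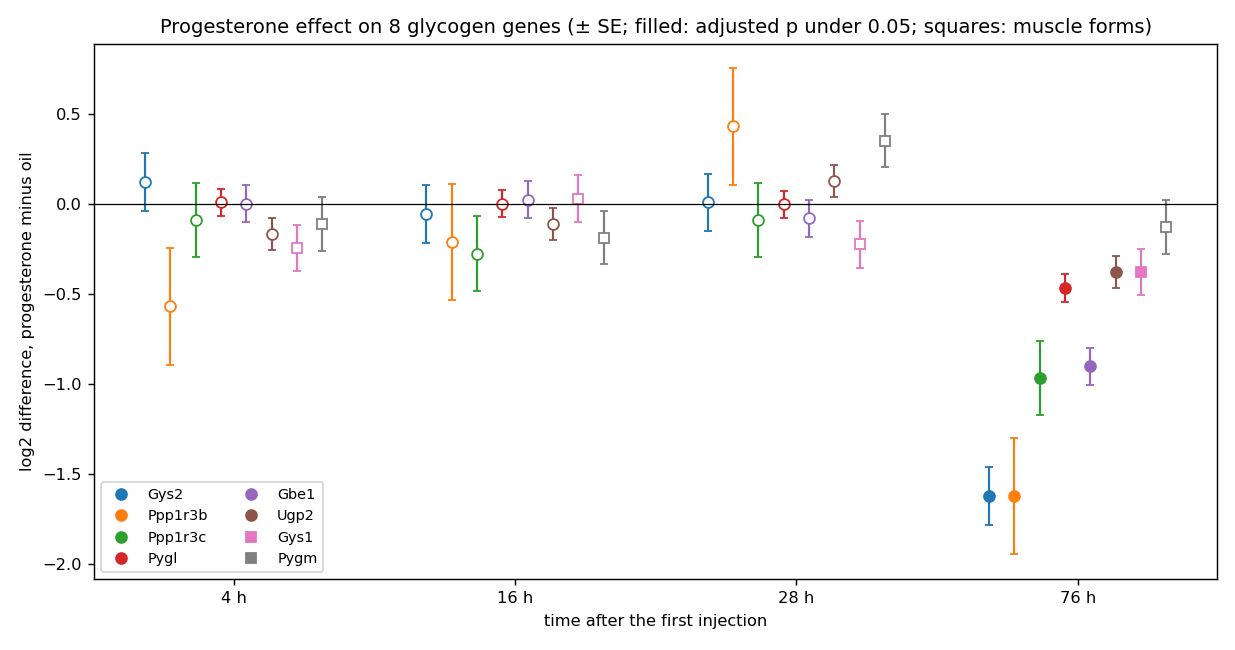
Log2 difference, P4 minus oil, with its SE for each of the 8 glycogen genes at 4, 16, 28 and 76 h after the first injection, with filled points at an adjusted p under 0.05 and squares for the muscle forms. All points of the first 3 times are open, and at 76 h 7 of 8 are filled, from -1.62 for Gys2 and Ppp1r3b to -0.38 for Ugp2 and Gys1.

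Gys2 averaged 568 ± 139, 397 ± 26.3 and 462 ± 81.5 in P4 glands at 4, 16 and 28 h (SD, n = 3 each), close to the oil means of those times. Its 95% intervals ran from -0.22 to 0.46 at 4 h, from -0.40 to 0.28 at 16 h and from -0.33 to 0.35 at 28 h, none of which reaches the fall of 76 h. Pygl differed by 0.0090, 0.00034 and -0.0028 on the log2 scale at these times, with intervals within 0.17 of 0. Gbe1 differed by 0.00016, 0.02 and -0.08, with intervals within 0.30 of 0.

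The phosphatase subunits were measured less precisely. Ppp1r3b had 544, 874 and 731 in P4 glands at 4 h, against 1014, 910 and 1228 in oil glands. The groups did not overlap, but the log2 difference of -0.57 ± 0.32 was not called (adjusted p = 0.487). At 28 h Ppp1r3b had 593, 341 and 1047 in P4 glands and 705, 307 and 402 in oil glands, so that both groups spread over a wide range. The third P4 array of 28 h was the highest of its group in Ppp1r3b, in Ppp1r3c (1512) and in Ugp2 (3243). It also had the highest sum of brown adipocyte markers in that group, 5012.

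Whether the P4 effect differed between times was tested directly. The F-test over the 4 effects called 4 of the 8 genes, where 10% of all genes were called. These were Gys2, Gbe1, Pygl and Ppp1r3b. The call of Ppp1r3b was lost without the second oil array of 28 h, oil array 1 or 3 of 76 h, or the first or second P4 array of 76 h (highest adjusted p 0.0813). Set against single times, the effect of 76 h differed from that of 4 h in 3 of 8 genes (8.04% of all genes), from that of 16 h in 4 (11.1%) and from that of 28 h in 5 (7.64%). For Gys2 the differences were -1.74 ± 0.23, -1.57 ± 0.23 and -1.63 ± 0.23. For Gbe1 they were -0.90, -0.92 and -0.82, and for Pygl -0.48, -0.47 and -0.46, all of them called. Ppp1r3b differed from 16 h by -1.41 (adjusted p = 0.0477) and from 28 h by -2.05 (adjusted p = 0.00539), while its difference from 4 h was -1.05 (adjusted p = 0.174). The call against 16 h was lost in 13 of 24 fits without 1 array, among them 2 of the 3 P4 and 2 of the 3 oil arrays of 76 h (highest adjusted p 0.123). Ugp2 differed only from 28 h, by -0.50 (adjusted p = 0.0135, and 0.0519 without the second oil array of 28 h). Ppp1r3c, Gys1 and Pygm had no called difference between times. Without the second P4 array of 28 h the F-test called Ppp1r3c (adjusted p = 0.0280) and Ugp2 (adjusted p = 0.00204). Averaged over the 4 times, 6 of 8 genes were called lower, without Ugp2 (-0.13, adjusted p = 0.0532) and Pygm (-0.02, adjusted p = 0.904). Of all 12352 genes, 819 were called lower in that average and 12.5% in either direction. Between 2 and 7 of the 8 genes were called in that average when single arrays were left out.

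Since oil arrays also varied with time, the P4 groups were set against the oil arrays of the remaining 3 times. At 76 h all 8 genes were then called lower, where 32.6% of all genes were called in either direction and 1942 of 12352 were called lower. In the same comparison 5 of 15 skeletal muscle markers were called lower, with a median of -0.92. Of 10 white adipocyte markers 7 were called lower, with a median of -0.28. Gys2 differed by -1.57 ± 0.13, Ppp1r3b by -1.06 ± 0.26, Ppp1r3c by -0.92 ± 0.17 and Gbe1 by -0.72 ± 0.08. Gys1 differed by -0.69 ± 0.11 (adjusted p = 2.21e-05), a larger value than against its own oil group. Pygm differed by -0.42 ± 0.12 (adjusted p = 0.00976). At 16 h Gbe1 (-0.33, adjusted p = 0.0249) and Gys1 (-0.36, adjusted p = 0.0491) were called lower. Of all 12352 genes, 276 were called lower at 16 h and 4.53% in either direction. None of the 8 genes was called at 4 h (6.51% of all genes) or at 28 h (0.874% of all genes). At an unadjusted p under 0.05, limma gave 3 of 8 at 4 h and 2 of 8 at 28 h. All genes were not counted at that unadjusted threshold, so these counts have no background to be read against. Without the third P4 array of 28 h, Ppp1r3b (-1.05, adjusted p = 0.0323) and Ppp1r3c (-0.69, adjusted p = 0.0298) were called lower at 28 h. Time after injection differs between the groups of these comparisons.

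Among the oil groups alone, the F-test called 4 of the 8 genes, Gys1, Pygm, Ppp1r3b and Gbe1, where 12.2% of all genes were called. Gys1 averaged 624 ± 53.0, 400 ± 25.2, 559 ± 86.5 and 416 ± 22.4 in oil glands at 4, 16, 28 and 76 h (SD, n = 3 each). It was thus high at 4 and 28 h and low at 16 and 76 h. The log2 difference of 16 h minus 4 h was -0.64 ± 0.13 (adjusted p = 0.0201), that of 76 h minus 4 h was -0.58 ± 0.13 (adjusted p = 0.0178), that of 28 h minus 16 h was 0.47 ± 0.13 (adjusted p = 0.0259) and that of 76 h minus 28 h was -0.41 ± 0.13 (adjusted p = 0.0479). The last call was lost in 16 of 24 fits without 1 array (highest adjusted p 0.191, without the first oil array of 28 h), and the second Gys1 probe set gave 0.01. The call of 16 h minus 4 h was lost in 5 such fits (without the first or second oil array of 4 h or any of 16 h), that of 28 h minus 16 h in 5 (any oil array of 16 h, the first or second of 28 h) and that of 76 h minus 4 h in 3 (the first of 4 h, the first or second of 76 h).

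Ppp1r3b averaged 1051 ± 162, 757 ± 130, 471 ± 208 and 1064 ± 298 in oil glands at 4, 16, 28 and 76 h, with its lowest level at 28 h. Its values at 28 h were 705, 307 and 402, of which the highest lay among those of 16 h. Oil at 28 h was lower than the other oil arrays by -1.07 ± 0.26 on the log2 scale (adjusted p = 0.0120), and it was the 1 member of 8 called in that contrast (7.60% of all genes). In single fits without 1 array Pygm (6 of 24 fits, -0.39 to -0.43), Ugp2 (2 fits, -0.21) and Gys1 (1 fit, 0.38) were called there too, and without the second P4 array of 28 h 3 members were called. Ppp1r3b was also the 1 of 8 called for 28 h minus 4 h, with -1.24 ± 0.32 (adjusted p = 0.0295, 3.82% of all genes), while Pygm was also called in 3 fits without 1 array (-0.50), and for Ppp1r3b 76 h minus 28 h gave 1.23 ± 0.32 (adjusted p = 0.0194). Without the second oil array of 28 h, which had 307, these Ppp1r3b values were -0.81, -0.97 and 0.96 and none was called. The first of them was also lost without the third oil array of 28 h, the second without that array or any oil array of 4 h, and the last without oil array 1 or 3 of 76 h. The F-test call of Ppp1r3b among oil groups was lost in 6 of 24 fits without 1 array (highest adjusted p 0.145, without the second oil array of 28 h). Pygm was lower at 28 h than at 16 h by -0.60 ± 0.15 (adjusted p = 0.0143), a call lost without the second oil array of 16 h (-0.50) or the first of 28 h (-0.58). It averaged 1130 ± 95.6, 1220 ± 194, 800 ± 63.1 and 846 ± 127 in oil glands at the 4 times. Of the 15 muscle markers, 12 were lower in oil glands at 28 h than at 16 h, with a median of -1.63. Against all other oil glands 7 of 15 were lower at 28 h, with a median of -1.10. Gbe1 averaged 1711 ± 211, 1342 ± 214, 1661 ± 90.2 and 1759 ± 121, lowest at 16 h, and no pair of single times was called, except 28 h minus 16 h without oil array 3 of 16 h (0.44, adjusted p = 0.00951). Its F-test call was lost without the first or second oil array of 16 h or oil array 1 or 3 of 76 h. In pairs of oil times, 1 of 8 members was called for 16 h against 4 h (2.30% of all genes) and 1 for 76 h against 4 h (3.57%), 2 for 28 h against 16 h (6.89%) and 2 for 76 h against 28 h (8.39%). The contrast of 76 h with 16 h called 0 of 12352 genes, and 3 of the 8 members had an unadjusted p under 0.05 in limma. How many of all genes had an unadjusted p under 0.05 was not counted.

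Other genes of the pathway were counted in the same way. Of 26 other glycogen genes listed, 20 were tested, and at 76 h 3 of them were lower in P4 glands (6.70% of all genes were lower), none was higher and 17 were not called. Their median log2 difference was -0.01, and none of the 20 was called with the brown adipocyte score as covariate. Gyg, glycogenin, which primes new glycogen chains, averaged 1676 in P4 glands and 2292 in oil glands (log2 difference -0.44 ± 0.10, adjusted p = 0.00333). Pgm1, a phosphoglucomutase that links glucose 1-phosphate and glucose 6-phosphate, averaged 942 and 1302 in P4 and oil glands (-0.47 ± 0.09, adjusted p = 0.000462). Ppp1r3d, another glycogen-targeting subunit of protein phosphatase 1, averaged 115 and 202 (-0.82 ± 0.21, adjusted p = 0.00780). The brain phosphorylase Pygb (0.02), the phosphorylase kinase subunits Phka2 (0.02), Phkb (-0.00087) and Phkg2 (-0.02) and the kinases Gsk3a (0.01) and Gsk3b (0.09) were not called. The catalytic subunits Ppp1ca, Ppp1cb and Ppp1cc, which the targeting subunits bind, gave -0.08, 0.06 and 0.13, not called either. Stbd1, which tethers glycogen to membranes, gave 0.48 (adjusted p = 0.0708). None of the 20 was called at 4, 16 or 28 h, but array weights gave 5, 9 and 1 calls at these times, and at 4 h the muscle score or the oil arrays of the other times as controls gave 1. How many of all genes were called with array weights was not counted.

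Of 13 tested genes of glucose uptake and its signalling, 4 were lower in P4 glands at 76 h (again against 6.70% of all genes) and none was higher, with a median of -0.15. With the brown adipocyte score as covariate 1 of the 13 was called. Slc2a4, the insulin-responsive glucose transporter of fat and muscle, averaged 1315 in P4 glands and 2415 in oil glands (-0.88 ± 0.09, adjusted p = 2.36e-07). Hk2, the hexokinase of insulin-sensitive tissues, averaged 771 and 1546 in P4 and oil glands (-1.0 ± 0.17, adjusted p = 0.000121). Mlxipl, a glucose-responsive transcription factor, gave -0.93 ± 0.20 (adjusted p = 0.00180), and Srebf1, a regulator of lipid synthesis genes, -0.43 ± 0.11 (adjusted p = 0.00610). The widely expressed transporter Slc2a1 (-0.0023) and the hexokinase Hk1 (0.30, adjusted p = 0.0608) were not called. At 28 h Ugdh, which oxidises UDP-glucose to UDP-glucuronate, was the 1 gene called, higher in P4 glands (0.40 ± 0.09, adjusted p = 0.0139), a call lost without the first P4 or the first oil array of 28 h and in the fit to the 6 arrays of that time (adjusted p = 0.153). With array weights 5, 8 and 2 of the 13 were called at 4, 16 and 28 h, again without a count over all genes. Of 14 clock genes tested, Tef was lower in P4 glands at 28 h (-0.50, 2.53% of all genes called). At 76 h Hlf was higher (0.58) while Arntl (-0.66) and Clock (-0.31) were lower (17.8% of all genes called). In oil glands of 28 h against the other oil glands, 5 clock genes were higher and 3 lower (939 of 12352 genes called). Oil glands of 76 h had 3 higher and 6 lower in the same kind of contrast (369 genes called). Those of 4 h had 4 higher and 1 lower (353 genes called), and those of 16 h had none (123 genes called).

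**Figure D4:**
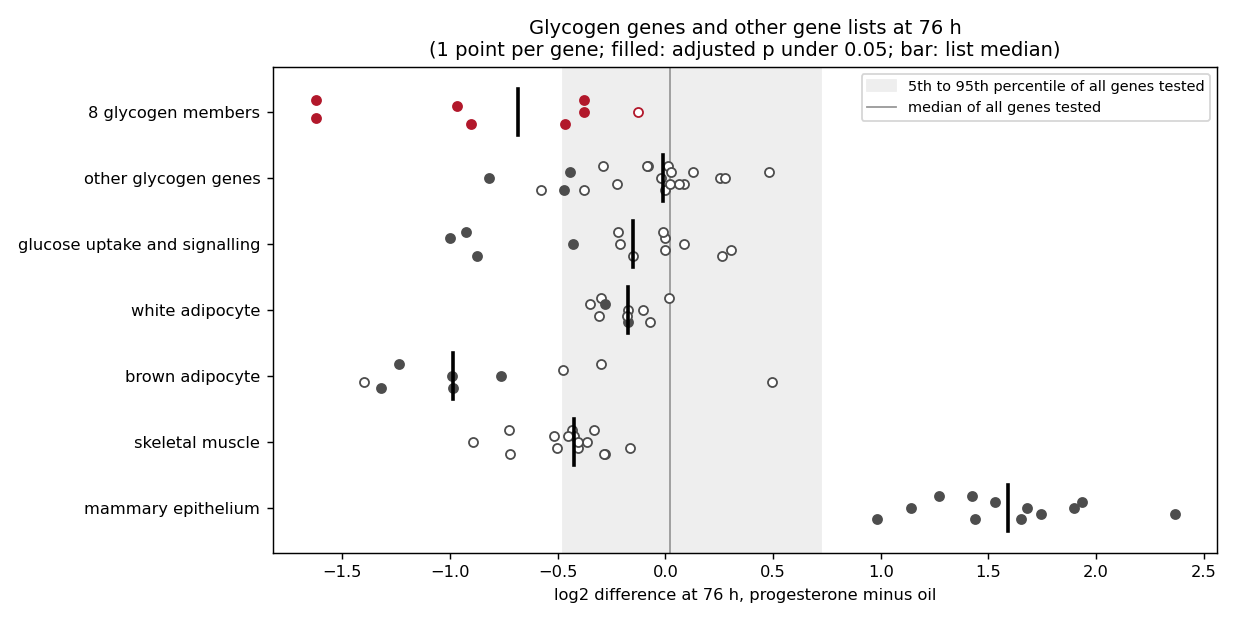
Log2 difference at 76 h, P4 minus oil, of each tested gene in 7 lists (filled at an adjusted p under 0.05, bars at list medians), over a band from the 5th to the 95th percentile of all genes. The 8 glycogen genes have a median of -0.68, the brown adipocyte markers -0.99 and the mammary epithelium markers 1.59.

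Markers of the cell types in the gland also differed at 76 h. All 12 epithelial markers were higher in P4 glands, with a median of 1.59, and their sum lay between 18472 and 21054 in P4 glands and between 6041 and 7538 in oil glands. Of 10 white adipocyte markers, 2 were lower (Retn by -0.28 and Lpl by -0.17) and 8 were not called, with a median of -0.18. Their sum lay between 57454 and 65216 in P4 glands and between 66786 and 67823 in oil glands. Of 9 brown adipocyte markers, 5 were lower and 4 not called, with a median of -0.99, and their sum lay between 1801 and 2155 in P4 glands and between 3874 and 4737 in oil glands. Of 8 lymphocyte markers, 4 were lower (Cd79b, Cd8a, Ms4a1 and Ccr7) and 4 not called, with a median of -0.47, and their sum lay between 9193 and 11499 in P4 glands and between 12979 and 14508 in oil glands. Of 2 liver markers tested, Alb was lower (-0.64) and Pck1 was not called (0.10). The part of the lymphocyte and liver markers in the results was not tested. Ucp1, which defines brown fat, had -1.40 ± 0.58 and was not called (adjusted p = 0.102). Its intensities were low, 11.2 to 40.9 in P4 glands and 45.0 to 74.9 in oil glands. The log2 ratio of 3' over 5' actin control probes was 0.370 to 0.454 in P4 glands and 0.308 to 0.374 in oil glands at 76 h, and its part in the results was not tested.

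The 76 h differences were therefore recomputed with marker scores as covariates. At 76 h the white and the brown adipocyte markers did not overlap between P4 and oil glands. These scores thus vary together with the treatment, so that neither a lost call nor a kept call can separate marker content from treatment. A score of the epithelial markers was not used. Gys2 and Gbe1 kept their calls under every setting run. With the mean of the white adipocyte markers in the model, Gys2 gave -1.66, Gbe1 -0.98 and Pygl -0.37, all called. Ppp1r3b (-1.06, adjusted p = 0.0707), Ppp1r3c (-0.71, adjusted p = 0.0747), Ugp2 (-0.30, adjusted p = 0.0841) and Gys1 (-0.14, adjusted p = 0.605) were no longer called. With the brown adipocyte score, Gys2 (-1.24, adjusted p = 0.00149) and Gbe1 (-0.82, adjusted p = 0.00228) were called. Ppp1r3b (-0.45, adjusted p = 0.521), Ppp1r3c (-0.40, adjusted p = 0.423), Ugp2 (-0.11, adjusted p = 0.612), Pygl (-0.35, adjusted p = 0.0602) and Gys1 (-0.23, adjusted p = 0.520) were not. With each array centred on its white adipocyte score, which moves the median of all genes to 0.22, Gys2 gave -1.43 and Ppp1r3b -1.43, while Ugp2 (-0.18, adjusted p = 0.145) and Gys1 (-0.19, adjusted p = 0.230) lost their calls. With the skeletal muscle score, Gys1 was the 1 gene that lost its call (-0.33, adjusted p = 0.0813), and Pygm gave -0.01. Pygm, not called in any of these fits, turned to 0.06 with the centring.

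**Figure D5:**
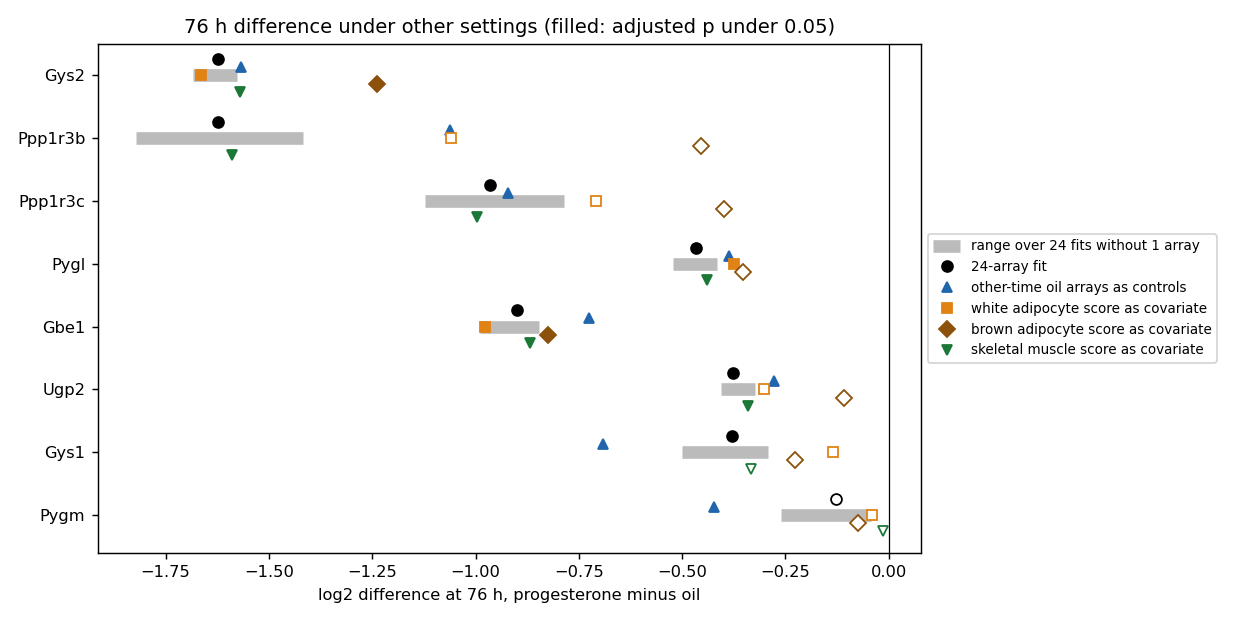
Log2 difference at 76 h, P4 minus oil, of each glycogen gene in the fit of all 24 arrays, with the oil arrays of other times as controls and with marker scores as covariates (filled at an adjusted p under 0.05), over grey bars for the range of 24 fits that each leave out 1 array. Gys2 and Gbe1 are filled throughout, and the values with the brown adipocyte score lie nearest to 0 for Ppp1r3b, Ppp1r3c and Ugp2.

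Over the 24 arrays the glycogen genes did not all vary alike. Among the 21 arrays other than P4 at 76 h, Pearson's r was 0.78 between Gys2 and Pygl, 0.72 between Gys2 and Gbe1 and 0.85 between Pygl and Gbe1. It was 0.72 between Ppp1r3b and Ppp1r3c, 0.75 between Ppp1r3b and Ugp2 and 0.58 between Ppp1r3c and Ugp2. Between Gys2 and Ppp1r3c it was 0.11, and between Gbe1 and Ppp1r3c -0.13. These values describe arrays that share groups and times. Over all 24 arrays r was 0.68 between Gys2 and Ppp1r3c and 0.52 between Gbe1 and Ppp1r3c. A ranking of other genes over all 24 arrays thus also draws on the P4 arrays of 76 h. It was not repeated without them. In that ranking the genes most like Gys2 by Pearson's r were the cytochrome c gene Cycs (0.93), Parm1 (0.92) and the glycerol 3-phosphate dehydrogenase Gpd1 (0.92). These 3 genes were themselves lower in P4 glands at 76 h, with log2 differences of -0.49, -1.17 and -0.47. Those most like Ppp1r3b were Mid1ip1 (0.94), Angptl8 (0.92) and the fatty acid desaturase Scd2 (0.89). For Ppp1r3c they were the mitochondrial enzymes Idh3a (0.86) and Sdha (0.86) and the phosphatidate phosphatase Lpin1 (0.85). For Pygl they were Slc25a35 (0.95), the pyruvate dehydrogenase subunit Dlat (0.93) and Nat8l (0.93). Gbe1 was most like the members Pygl and Gys2 (0.91 each) and the fatty acid elongase Elovl6 (0.91). For Ugp2 they were Nudt7 (0.90), the brown fat marker Cox8b (0.89) and Uqcrq (0.87), for Gys1 H6pd (0.94), Iqsec1 (0.94) and Pex19 (0.93), and for Pygm the muscle genes Myoz1 (0.92) and Ckm (0.90) and Srek1ip1 (0.89).

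Promoters were read for 6 of the 8 genes from RefSeq (build GRCm38.p6), as the 250 bases before each gene's start, with 7 starts in all. Ppp1r3c, Pygl and Gbe1 are shown as examples of genes called lower at 76 h, and Pygm because it was not called. Ugp2 and Gys1, also called lower then, are not printed but enter the counts below. Sequences run 5' to 3' along the gene's strand and end at the base before the start, and capitals mark the motif CACGTG, an E-box, to which clock factors and other transcription factors can bind.
Ppp1r3c, chr19:36736605-36736854, minus strand: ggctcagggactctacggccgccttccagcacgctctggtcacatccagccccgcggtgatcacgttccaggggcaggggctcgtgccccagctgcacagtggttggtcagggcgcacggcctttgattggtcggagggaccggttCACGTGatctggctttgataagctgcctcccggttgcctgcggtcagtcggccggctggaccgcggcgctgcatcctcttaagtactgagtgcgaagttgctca
Pygl, chr12:70227684-70227933, minus strand: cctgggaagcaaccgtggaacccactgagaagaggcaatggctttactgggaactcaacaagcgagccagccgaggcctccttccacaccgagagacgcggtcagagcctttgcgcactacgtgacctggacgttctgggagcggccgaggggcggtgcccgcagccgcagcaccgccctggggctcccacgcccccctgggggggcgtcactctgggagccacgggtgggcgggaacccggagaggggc
Gbe1, chr16:70313699-70313948, plus strand: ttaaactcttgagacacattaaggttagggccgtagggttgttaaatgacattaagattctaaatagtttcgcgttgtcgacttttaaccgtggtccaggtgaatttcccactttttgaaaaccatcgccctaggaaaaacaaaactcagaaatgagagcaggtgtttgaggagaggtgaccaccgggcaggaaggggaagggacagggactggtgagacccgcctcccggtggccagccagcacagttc
Pygm, chr19:6384158-6384407, plus strand: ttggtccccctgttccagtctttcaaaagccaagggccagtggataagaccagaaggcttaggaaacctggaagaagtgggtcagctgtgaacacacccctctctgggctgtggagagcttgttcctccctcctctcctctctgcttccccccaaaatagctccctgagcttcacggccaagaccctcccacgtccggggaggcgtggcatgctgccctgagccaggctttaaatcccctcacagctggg
The E-box, which reads the same on both strands, occurred at 1 of 7 starts, that of Ppp1r3c, with its first base at position -104 from the start, and in 6.02% of 32851 promoters of the same length. The motif AGAACA, a core recognised by the progesterone receptor and related steroid receptors, was searched on both strands and occurred at 0 of 7 starts and in 16.1% of those promoters. The end of AGAACA and the start of CACGTG share the letters CA, so that the motifs can overlap. A match describes the letters of this window only, and no match says only that they are not in it.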

How the data were processed

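Per the labels' protocols, Trizol-extracted RNA was biotin-labelled in 1 cycle and hybridized to Affymetrix arrays. The authors deposited intensity values on a linear scale, judged by their range. How probes were summarized and arrays normalized is not given in the sources used here. The table's 10th percentile (7.38) served as floor, and log2 was then taken. Symbols came from the platform annotation of 2016, and only probe sets with 1 symbol were used. A probe set was kept if it exceeded its array's median on 3 or more of 24 arrays. Taking the highest probe set of each gene by mean left 12352 genes. A linear model with 8 group means was fitted to all 24 arrays in limma 3.58.1 (R 4.3.3, statmod 1.5.0). It had 16 residual degrees of freedom, and the prior variance followed an intensity trend. Tests are two-sided, and p-values were adjusted by Benjamini-Hochberg over all genes, with a call at an adjusted p under 0.05.

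Intensities are given with the SD of 3 arrays, and log2 differences with the model's SE. The labels call arrays biological replicates, so that p-values measure the spread between pools of 5 mice, and the number of arrays limits the precision. Replicate numbers were not used as pairs in the main fit. Of 12 same-numbered pairs of P4 and oil arrays, 6 correlated over 0.1 in their deviations from the group means (-0.02 to 0.35). Pairs with different numbers were not computed, so that these values do not settle whether numbers mark pairs. Lists are described by counts and medians. The named genes are the 8 members, Pgr, up to 6 called genes of each list by the largest change, and the 3 genes most like each member. List genes named as not called were chosen after their values were seen. Members and lists were chosen with earlier results of these data known.

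Alternatives were other filters, floors and normalizations, other probe sets, variance models and array weights, marker scores as covariates, a replicate block, fits by single time, other controls and leaving out each array. The brown adipocyte score, centring on the white adipocyte score and leaving out 28 h were chosen after seeing the data.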

Additional observations from a re-analysis of the deposited data

Results flagged for a closer look

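The effect of P4 differed between the 4 times in 4 of the 8 glycogen genes, by limma's F-test of the difference itself. The adjusted p was 2.87e-05 for Gys2, 0.000214 for Gbe1, 0.00645 for Pygl and 0.0230 for Ppp1r3b. In each of them the fall of 76 h was the largest in size of the 4 effects. For Ppp1r3c (adjusted p = 0.113), Ugp2 (0.0565), Pygm (0.225) and Gys1 (0.405) a difference between times was not called. Without the second P4 array of 28 h, Ppp1r3c (0.0280) and Ugp2 (0.00204) were called, and Ugp2 was also called without P4 array 3 of 4 h (0.0478) or the first of 16 h (0.0415). Groups of 3 arrays were not searched for single outlying arrays.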

How the results depend on the processing

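At 76 h 7 of the 8 genes were called, and the count was 6 to 7 without single arrays, 3 with the white adipocyte score and 2 with the brown adipocyte score as covariate. None was called at 4, 16 and 28 h (0 to 0 without single arrays), but array weights gave 2, 2 and 1, and oil arrays of the other times gave 2 at 16 h. With array weights calls also rose among the other glycogen and glucose genes. The share of all genes called with array weights or a marker score was not counted. P4 at 28 h against the other oil arrays had 0 calls (0 to 2 without single arrays, 2 without the third P4 array of 28 h) and 3 with array weights. The mean of the 4 effects had 6 calls (2 to 7 without single arrays). It had 2 without a filter, 3 with quantile normalization, 3 with the muscle score, 2 with the white adipocyte score, 0 with the brown adipocyte score, 1 with centring on the white adipocyte score and 2 at an adjusted p under 0.01. The difference between times had 4 calls (3 to 6 without single arrays), 7 with array weights and 2 with the brown adipocyte score. The oil groups had 4 calls (2 to 4 without single arrays, 2 without the first or the third oil array of 76 h), 2 without a filter, 2 without a variance trend, 7 with array weights, 2 with the muscle score and 1 at an adjusted p under 0.01. The causes were not tested, except that a stricter threshold gives fewer calls by construction. A replicate block fits the replicate number across all times and does not model pairs within a time. With it, the 76 h comparison still had 7 calls and Gys2 gave -1.62. Of 7324 alternative values of 172 single-gene results, 6941 kept their direction where called and their side of the threshold, 267 lost a call, 115 gained one and 1 reversed, which is oil at 76 h against 28 h for Gys1, 0.0104 with its other probe set. The other glycogen genes called at 76 h were 3, and 6 with array weights, 6 against the other oil arrays, 7 with centring on the white adipocyte score and 0 with the brown adipocyte score. The glucose genes called were 4, and 8 with array weights and 1 with the brown adipocyte score. Probe signal near background limits genes under the array median, and none of the 8 lay there.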
